A study of Mus musculus with 25 samples.

Results

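T helper 2 (Th2) lineage genes were followed through sorted CD4 T cells of mice that lack, carry a knock-in of, or normally express the microRNA miR-150. The 8 genes are Gata3, Stat6, Il4ra, Il4, Il13, Ccr4, Ccr8 and Il1rl1. They were taken as a named list, were found by symbol, and make up 8 of the 46078 genes in the count table. A filter on low counts kept 14703 genes for testing, among them 6 of the 8. Il4 and Il13 did not pass it and are described by their counts.

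Th2 cells are the CD4 T cell subset of allergy and of defence against worms. Interleukin-4 (IL-4) binds a receptor whose alpha chain is encoded by Il4ra, the receptor activates the transcription factor STAT6, and STAT6 induces GATA3, the factor that opens the cytokine locus holding Il4 and Il13. The chemokine receptors CCR4 and CCR8 are carried by Th2 cells and by regulatory T cells, and Il1rl1 encodes ST2, the receptor for interleukin-33. GATA3 is also needed by CD4 T cells outside the Th2 lineage, so its RNA alone does not mark Th2 cells.

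The cells came from C57BL/6NTac mice that were either naive or at day 7 of experimental autoimmune encephalomyelitis (EAE), an induced brain inflammation driven by T cells. The 6 groups were miR-150 knock-out at day 7, knock-out naive, knock-in at day 7, knock-in naive, wild-type at day 7 and wild-type naive. Wild-type day 7 held 5 libraries and each other group held 4. The labels give no age, no sex, no description of the alleles and no statement that each library is a separate mouse, so p-values measure the spread between libraries, which may be technical. Library totals ran between 6024043 and 49489134 counts with a median of 16312725, and the 4 wild-type naive libraries were shallow, at 6024043 to 9351180 counts. The primary transcript gene Mir150 had no counts in any of the 8 knock-out libraries. It stood at 9.08 to 29.2 CPM (counts scaled to library size) in knock-in day 7 and 12.9 to 16.2 CPM in knock-in naive libraries, against 12.4 to 25.7 CPM in wild-type day 7 and 14.4 to 24.5 CPM in wild-type naive libraries, so the knock-in libraries did not stand above wild-type. All 9 CD4 T cell markers were detected in every library, and Cd4 itself stood between 443 and 582 CPM.

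STAT6 and GATA3 are known to bind short DNA words, so the promoters of the 8 genes were searched for those words. RefSeq (GRCm38.p6) gives 10 start sites for the 8 genes, with 250 bases before and 50 bases after each. The STAT word, TTC and GAA with 4 bases between them, reads the same on both strands. It lies in 6.95% of 32851 mouse promoter windows of that length and, among the 8 genes, only in 1 of those of Il4. The window with that word is shown whole, 5′ to 3′ on the minus strand (chr11:53618616-53618915), with the STAT word and a GATA word in capitals.
Il4: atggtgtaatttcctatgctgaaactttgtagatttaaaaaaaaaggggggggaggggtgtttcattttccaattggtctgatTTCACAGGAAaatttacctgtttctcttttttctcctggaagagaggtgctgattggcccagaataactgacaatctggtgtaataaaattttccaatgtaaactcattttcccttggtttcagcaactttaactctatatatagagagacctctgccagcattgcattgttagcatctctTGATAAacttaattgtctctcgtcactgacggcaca
The STAT word starts 167 bases before the Il4 start site. The match is a description of letters, and no binding was measured.

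The GATA word, with A or T before GATA and A or G after it, was searched on both strands and lies in 29.8% of those promoters and in the windows of 5 of the 8 genes. They are shown with 10 bases on each side where the window allows, the word in capitals, because these genes are the ones whose RNA is compared next.
Gata3 (minus strand, chr2:9878551-9878574): ggcgccgtctTGATAGtttcagaa
Il13 (minus strand, chr11:53634768-53634793): tgtggttttcAGATAAtgcccaacaa
Ccr8 (plus strand, chr9:120091884-120091909): tgccccctgcTTATCTctgccccaga
Il1rl1 (plus strand, chr1:40429343-40429368): aggtccatggAGATAAgggtaaaact
The Ccr8 word is on the opposite strand and is printed as it reads on the plus strand. The Il1rl1 window shown holds 5 such words in all, this being the one farthest from the start. The other window of Il4 and that of Il1rl1 hold 1 such word each and are not shown. No such word was found in the windows of Stat6, Il4ra or Ccr4, which says only that these letters are not in those windows. Il4 and Il13 are neighbours, 12.7 kb apart on chromosome 11, and Ccr4 and Ccr8 lie 5.59 Mb apart on chromosome 9.

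The members split into 3 well-expressed genes and 5 that were scarce. Per kilobase of exon, the mean level over the 25 libraries was 46.7 ± 3.88 CPM per kb for Il4ra, 38.3 ± 3.34 for Stat6 and 15.2 ± 1.83 for Gata3 (SD). Ccr4 followed at 2.13 ± 1.21, Ccr8 at 1.46 ± 0.681, Il1rl1 at 0.228 ± 0.111, Il4 at 0.145 ± 0.199 and Il13 at 0.0337 ± 0.0745 CPM per kb. Il4ra was above Stat6 in 24 of 25 libraries, and Stat6 was above Gata3 and Gata3 above Ccr4 in all 25. Lower down, Ccr8 was above Il1rl1 in all 25 as well, and the order of the other neighbours varied between libraries. Ccr4 was above Ccr8 in 17 of 25 libraries, Il1rl1 above Il4 in 19 and Il4 above Il13 in 14. Libraries with no count of either cytokine are not among those 14. The receptor chain, its signal transducer and the lineage factor were thus abundant in cells in which both effector cytokines were near the counting limit.

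**Figure D1:**
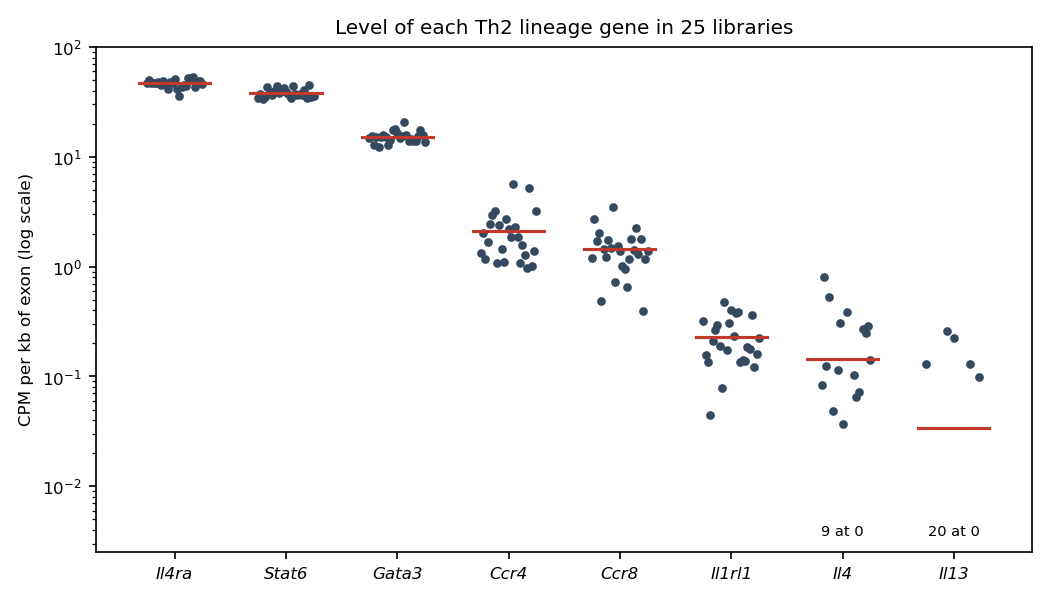
Level of each Th2 lineage gene in CPM per kilobase of exon (vertical log axis), with 1 point per library and a red line at the mean over 25 libraries. Il4ra, Stat6 and Gata3 stand above Ccr4 and Ccr8 in all libraries, and the 9 libraries without Il4 counts and the 20 without Il13 counts are given as numbers since 0 has no place on a log axis.

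Day 7 was compared with naive to ask which Th2 genes move early in EAE. Over the mean of the 3 genotypes, Ccr4 was higher at day 7, and it was the only one of the 6 tested members to pass the threshold, an adjusted p below 0.05. In that comparison 11.2% of all 14703 genes passed, 905 higher and 744 lower, so 1 call among 6 members is near the background. The median log2 fold change was 0.05 over the 6 members and -0.0036 over all genes tested.

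Ccr4, a chemokine receptor for CCL17 and CCL22, had 5.70, 17.5, 7.08 and 5.77 CPM in knock-out day 7 libraries, against 4.51, 3.40, 8.36 and 6.86 CPM in knock-out naive libraries. In knock-in cells it had 16.1, 3.16, 4.30 and 9.86 CPM at day 7, against 3.37, 4.87, 3.93 and 3.04 CPM naive. In wild-type cells it had 7.58, 9.07, 10.01, 3.33 and 7.45 CPM at day 7, against 4.08, 6.31, 3.65 and 5.16 CPM naive. The stages overlapped in each genotype, and 1 knock-out and 1 knock-in day 7 library stood far above all the rest. The mean was 9.02 ± 5.70 CPM at day 7 and 5.78 ± 2.24 CPM naive in knock-out cells (SD, n = 4 each), 8.35 ± 5.94 CPM at day 7 and 3.80 ± 0.803 CPM naive in knock-in cells (SD, n = 4 each), and 7.49 ± 2.56 CPM at day 7 (SD, n = 5) and 4.80 ± 1.19 CPM naive (SD, n = 4) in wild-type cells.

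The Ccr4 change over the mean of 3 genotypes was 0.79 on the log2 scale (SE 0.24, 95% interval 0.30 to 1.28), a 1.73-fold difference, with an edgeR adjusted p of 0.0295. By genotype it was 0.61 in knock-out (adjusted p = 0.561), 1.13 in knock-in (adjusted p = 0.168) and 0.63 in wild-type cells (adjusted p = 0.523), none past the threshold. The knock-out value was 0.099 without knock-out day 7 replicate 2, and the knock-in value was 0.58 without knock-in day 7 replicate 1. The knock-out change minus the wild-type change was -0.02 (95% interval -1.20 to 1.16) and the knock-in change minus the wild-type change was 0.50 (95% interval -0.70 to 1.70). The call rests on few libraries. It was lost without knock-out day 7 replicate 2 (0.62, adjusted p = 0.0636) and without knock-in day 7 replicate 1 (0.61, adjusted p = 0.0900), which hold the 2 highest values. It was also lost, with fold changes of 0.73 to 0.77, without knock-out naive replicate 2 (adjusted p = 0.0549), knock-in naive replicate 1 (0.0511), knock-in naive replicate 4 (0.0502), wild-type naive replicate 1 (0.0518) or wild-type naive replicate 3 (0.0571). With limma voom the change was 0.66 (adjusted p = 0.0663), with a block for consecutive library numbers 0.69 (adjusted p = 0.0717), and with DESeq2 0.81 (adjusted p = 0.0237).

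**Figure D2:**
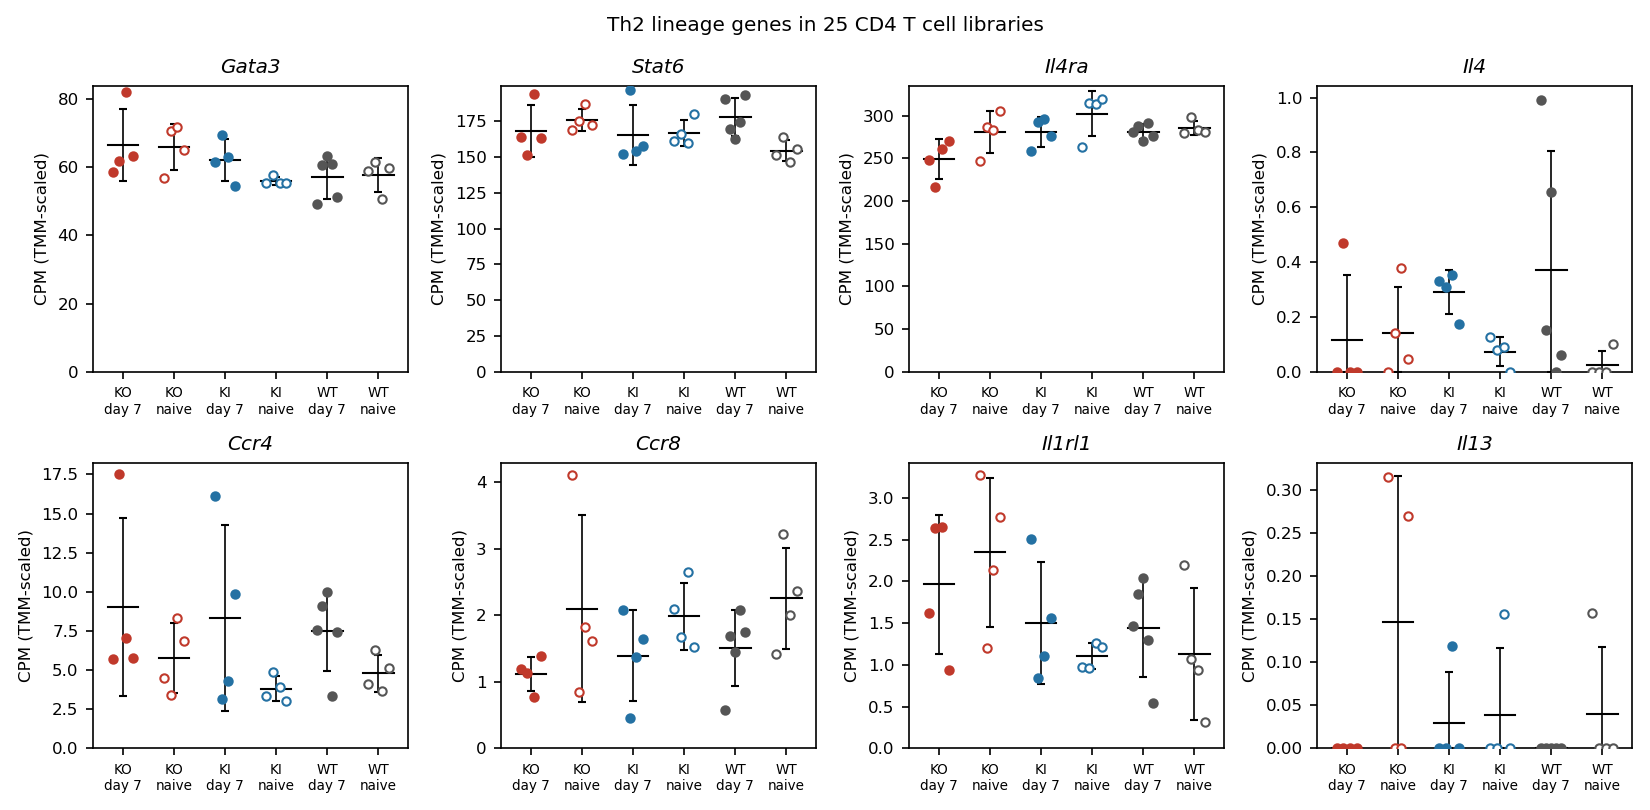
CPM of the 8 genes by group, 1 point per library, with the mean (horizontal line) and SD (bars); filled points are day 7 and open points naive. Ccr4 is carried by 17.5 CPM in a knock-out and 16.1 CPM in a knock-in day 7 library, while Gata3, Stat6 and Il4ra keep to a narrow range, Il13 lies at 0 in 20 of 25 libraries and Il4 in 9.

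Ccr8, the other chemokine receptor, pointed the opposite way without passing the threshold. It had 1.19, 1.13, 0.774 and 1.38 CPM in knock-out day 7 libraries, against 4.11, 0.850, 1.82 and 1.62 CPM in knock-out naive libraries. In knock-in cells it had 2.08, 0.462, 1.38 and 1.64 CPM at day 7, against 2.10, 1.68, 2.64 and 1.52 CPM naive. In wild-type cells it had 0.575, 1.69, 1.45, 2.07 and 1.74 CPM at day 7, against 1.41, 3.22, 2.00 and 2.37 CPM naive. Stages overlapped in every genotype. Over the mean of 3 genotypes the log2 fold change was -0.69 (SE 0.26, 95% interval -1.21 to -0.16, edgeR adjusted p = 0.0826), and it passed the threshold only without knock-out naive replicate 2 (adjusted p = 0.0468).

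Il1rl1 likewise gave no call. It averaged 1.96 ± 0.836 CPM in knock-out day 7 and 2.35 ± 0.892 CPM in knock-out naive libraries, 1.502 ± 0.729 CPM in knock-in day 7 and 1.10 ± 0.159 CPM in knock-in naive libraries, and 1.44 ± 0.581 CPM (n = 5) in wild-type day 7 and 1.13 ± 0.786 CPM in wild-type naive libraries (SD, n = 4 unless given). The log2 fold change at day 7 over the mean of 3 genotypes was 0.19 (95% interval -0.36 to 0.74, edgeR adjusted p = 0.728). This interval allows a rise or a fall of some size, so the 3 scarce receptors were measured less firmly than the 3 abundant genes. The replicate spread of the fit, as a biological coefficient of variation, was 39.6% for Ccr4, 40.3% for Ccr8 and 40.7% for Il1rl1, against 10.46% for Gata3, 8.45% for Stat6 and 7.78% for Il4ra.

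The IL-4 receptor, STAT6 and GATA3 axis was close to level across EAE. Gata3 changed by 0.05 on the log2 scale at day 7 over the mean of 3 genotypes (95% interval -0.07 to 0.17, edgeR adjusted p = 0.651). Stat6 differed by 0.04 (95% interval -0.05 to 0.14, adjusted p = 0.607) and Il4ra by -0.10 (95% interval -0.18 to -0.02, adjusted p = 0.119). None of these passed the threshold, and each interval leaves room for less than 0.20 in either direction. Il4ra passed only without knock-in naive replicate 1, its lowest naive knock-in library (-0.12, adjusted p = 0.0457).

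By genotype, 2.14% of all genes passed between day 7 and naive in wild-type, 0.408% in knock-out and 2.02% in knock-in cells, and none of the 6 tested members did in any of the 3. Ccr4 in knock-in cells, given above, had the lowest adjusted p of them and Stat6 in wild-type cells the next. Stat6 in wild-type cells had 191, 169, 163, 175 and 193 CPM at day 7, against 151, 164, 147 and 156 CPM naive, so only the lowest day 7 library fell within the naive range. The log2 fold change was 0.21 (95% interval 0.05 to 0.36, edgeR adjusted p = 0.174), and limma voom with library weights gave 0.23 with an adjusted p of 0.0370. The change was -0.06 in knock-out cells (95% interval -0.22 to 0.10) and -0.01 in knock-in cells (95% interval -0.17 to 0.15). The difference between the knock-out and the wild-type change of Stat6 was -0.27 (95% interval -0.49 to -0.04, adjusted p = 0.557). No gene of the 14703, and so no member, passed in the test of that difference or in the same test for knock-in (0% each), while 1145 and 558 genes had an unadjusted edgeR p below 0.05 and DESeq2 called 1 gene in each.

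**Figure D3:**
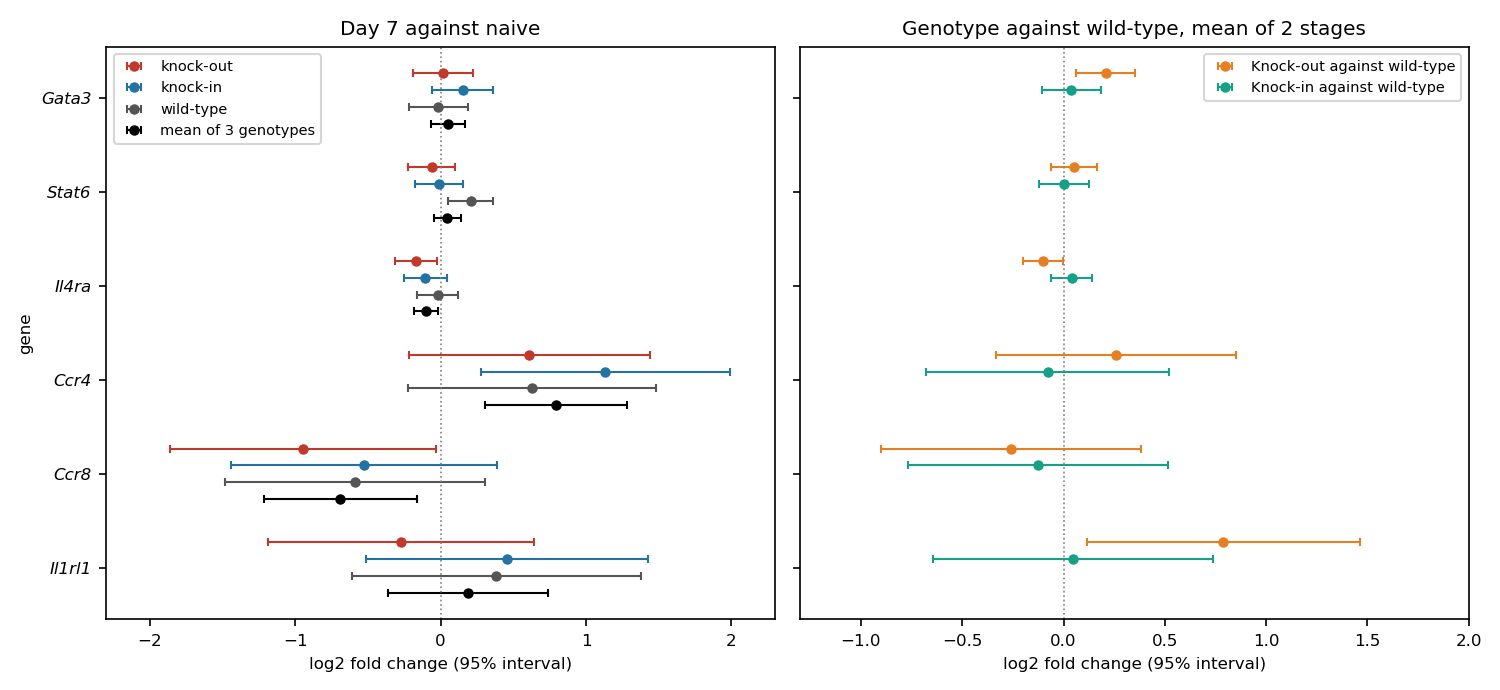
Log2 fold changes of the 6 tested genes with 95% intervals: day 7 against naive within each genotype and over the mean of 3 genotypes (left), and knock-out or knock-in against wild-type over the mean of 2 stages (right). The intervals of Gata3, Stat6 and Il4ra are narrow and near 0, and among the means over genotypes that of Ccr4 (0.79) lies to the right and that of Ccr8 (-0.69) to the left.

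The genotype comparisons ask whether losing or knocking in miR-150 shifts Th2 genes. No member passed in any of them. Between knock-out and wild-type, 0.0204% of all genes passed in naive cells, 0.0476% at day 7 and 0.17% over the mean of 2 stages. Between knock-in and wild-type, 0.0136% passed in naive cells, 0% at day 7 and 0% over the mean of 2 stages. In those last 2 comparisons 684 and 463 genes had an unadjusted edgeR p below 0.05, and over the mean of 2 stages DESeq2 called 1 gene.

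Over the mean of 2 stages, Gata3 was the member with the lowest unadjusted p between knock-out and wild-type. It had 58.6, 61.7, 82.1 and 63.2 CPM in knock-out day 7 libraries, against 49.3, 60.6, 63.2, 60.8 and 51.1 CPM in wild-type day 7 libraries. In naive cells it had 56.7, 70.4, 71.6 and 64.9 CPM in knock-out, against 58.9, 61.4, 50.5 and 59.7 CPM in wild-type libraries. The groups overlapped at both stages. Over the mean of 2 stages the log2 fold change was 0.21 (95% interval 0.06 to 0.35), with an unadjusted p of 0.00636 and an edgeR adjusted p of 0.300. In knock-in against wild-type cells it was 0.04 (95% interval -0.11 to 0.19).

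Il1rl1 had the next lowest unadjusted p over the mean of 2 stages. It had 1.62, 2.64, 2.65 and 0.941 CPM in knock-out day 7 libraries, against 1.46, 1.84, 2.04, 1.30 and 0.541 CPM in wild-type day 7 libraries. In naive cells it had 3.27, 1.20, 2.14 and 2.77 CPM in knock-out, against 2.20, 1.07, 0.941 and 0.309 CPM in wild-type libraries, where the lowest value is 3 counts. The groups overlapped at both stages. Over the mean of 2 stages the log2 fold change was 0.79 (95% interval 0.11 to 1.46, unadjusted p = 0.0235, edgeR adjusted p = 0.445).

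Il4ra at day 7 and Stat6 in naive cells were the members whose knock-out and wild-type groups did not overlap, though neither passed. The share of all genes without overlap was not counted, so this is a description. Between knock-out and wild-type, 1390 of 14703 genes at day 7 and 1110 in naive cells had an unadjusted edgeR p below 0.05. At day 7 Il4ra had 248, 216.6, 261 and 270 CPM in knock-out libraries, against 281, 288, 270, 291 and 276 CPM in wild-type libraries, with the highest knock-out library just under the lowest wild-type one. The log2 fold change was -0.18 (95% interval -0.31 to -0.04, edgeR adjusted p = 0.362). Il4ra lies on chromosome 7 as Mir150 does, 80.4 Mb away. In naive cells Stat6 had 169, 175, 187 and 172 CPM in knock-out libraries, against 151, 164, 147 and 156 CPM in wild-type libraries, and every knock-out library was above every wild-type one. That log2 fold change was 0.19 (95% interval 0.02 to 0.35, edgeR adjusted p = 0.613), and at day 7 it was -0.08 (95% interval -0.24 to 0.07).

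The Th2 cytokines were at the limit of detection. Il4 had 89 counts in the whole series and none in 9 of 25 libraries. Among wild-type day 7 libraries it had 19, 1, 19, 0 and 1 counts, against 0, 0, 0 and 1 counts in wild-type naive libraries, so 2 libraries held nearly all of the signal. Knock-in day 7 libraries had 7, 4, 9 and 2 counts, against 6, 1, 4 and 0 counts in knock-in naive libraries. In CPM the knock-in stages did not overlap, with 0.331, 0.308, 0.355 and 0.173 CPM at day 7 against 0.127, 0.0799, 0.0889 and 0 CPM naive. How many of all genes show no overlap there was not counted. In an edgeR fit without the low-count filter, this knock-in change of Il4 had an adjusted p of 0.679. Knock-out day 7 libraries had 0, 5, 0 and 0 counts, against 0, 2, 6 and 2 counts in knock-out naive libraries.

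Summed over libraries, Il4 stood at 0.0525 CPM in knock-out day 7 (95% exact Poisson interval 0.0170 to 0.122) and 0.0887 CPM in knock-out naive cells (0.0426 to 0.163). It stood at 0.309 CPM in knock-in day 7 (0.194 to 0.468) and 0.0988 CPM in knock-in naive cells (0.0493 to 0.177), and at 0.424 CPM in wild-type day 7 (0.303 to 0.577) and 0.0312 CPM in wild-type naive cells (0.000791 to 0.174). These intervals cover counting error only. When the fit was run without the low-count filter, the Il4 log2 fold change at day 7 over the mean of 3 genotypes had an adjusted p of 0.334.

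Il13 had 35 counts in 5 of 25 libraries. No count was found in the 4 knock-out day 7 or the 5 wild-type day 7 libraries, which allows up to 0.0315 CPM in knock-out and 0.0318 CPM in wild-type cells, at 3 counts over each group. Knock-in day 7 libraries had 0, 0, 3 and 0 counts. In naive cells there were 12, 0, 0 and 12 counts in knock-out, 0, 0, 7 and 0 in knock-in and 1, 0, 0 and 0 in wild-type libraries. The knock-out libraries with 12 counts each are among the deepest of the series, at 38506314 and 43640843 counts. In the fit without the filter Il13 had an adjusted p of 0.0804 for day 7 against naive over the mean of 3 genotypes.

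Of 18 other Th2 effector genes, 8 passed the filter, 1 was higher at day 7 over the mean of 3 genotypes and 7 did not pass the test, where 11.2% of all genes tested passed, so that 1 of 8 is near the background. The one called was Maf, a transcription factor of Th2 and follicular helper cells, with a log2 fold change of 0.99 (SE 0.21, edgeR adjusted p = 0.00263). It had 19.8, 38.4, 28.8 and 14.8 CPM in knock-out day 7, 58.2, 13.2, 13.6 and 33.5 CPM in knock-in day 7 and 23.3, 30.7, 30.5, 11.8 and 21.6 CPM in wild-type day 7 libraries. Naive libraries had 12.2 to 26.5 CPM in knock-out, 6.53 to 13.3 CPM in knock-in and 9.42 to 16.5 CPM in wild-type cells. The other Th2 cytokines were as scarce as Il13, with 5 counts of Il5 and 1 of Il9 in the whole series and none of Il31 or Il3.

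Along the IL-4 receptor pathway, 3 of 11 tested genes were higher at day 7 over the mean of 3 genotypes, 1 was lower and 7 did not pass, beside the 11.2% of all genes tested that passed in either direction. Irs2, an adaptor that IL-4 and insulin receptors share, rose by 1.05 (edgeR adjusted p = 8.59e-09). Jak3, the kinase on the common gamma chain, rose by 0.61 (adjusted p = 3.44e-07), and Socs1, a feedback inhibitor of JAK kinases, rose by 0.43 (adjusted p = 0.0155). Jak1 changed by -0.13 (adjusted p = 0.000456). The median over the 11 was 0.07, against -0.0036 over all genes tested.

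Among 22 partners and regulators of GATA3, 4 were higher, 2 lower and 16 did not pass, beside the same 11.2% over all genes. Junb, an AP-1 factor that binds the Il4 promoter, rose by 1.51 (edgeR adjusted p = 2.51e-15). Runx3, which represses Il4 in Th1 cells, rose by 0.19 (adjusted p = 0.00418) and Tcf7, encoding TCF-1, by 0.16 (adjusted p = 0.00457). Kmt2a, a histone methyltransferase of memory Th2 cells, changed by -0.19 (adjusted p = 0.000204). Runx1, a partner of GATA3 in T cell development, rose by 0.11 (adjusted p = 0.0499), and Ikzf1, encoding Ikaros, changed by -0.087 (adjusted p = 0.0380). Of 7 tested genes of the interleukin-33 receptor pathway, Irak1, a kinase below the receptor, rose by 0.13 (adjusted p = 0.0226) and Sigirr, an inhibitory receptor, by 0.17 (adjusted p = 0.0496), and 5 did not pass. Of 5 tested neighbours of the cytokine locus, Rad50, whose gene holds the locus control region, changed by -0.14 (adjusted p = 0.0407). The 4 genes for ligands of CCR4 and CCR8 did not pass the filter, the highest being Ccl1 with 51 counts over 25 libraries.

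Over the 25 libraries the log2 CPM of Ccr4 was most like that of Cenpe, a mitotic kinesin (Pearson r = 0.94, Spearman rho = 0.90), Maf (r = 0.93, rho = 0.91) and Hist1h1b, a linker histone made in S phase (r = 0.91, rho = 0.88), among 10886 genes searched. Without the 2 libraries farthest from the median of Ccr4, r was 0.89 for Cenpe, 0.90 for Maf and 0.86 for Hist1h1b. These are descriptions over libraries that share groups, and no p is given. With other members, r of Ccr4 lay between -0.53 (Il4ra) and 0.43 (Il1rl1).

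The 2 libraries high in Ccr4 were high in those genes too. Cenpe had 34.5 CPM in knock-out day 7 replicate 2 and 31.4 CPM in knock-in day 7 replicate 1, and 4.06 to 19.5 CPM in the other day 7 libraries, against 4.26 to 11.6 CPM in naive libraries. The summed level of the 11 T follicular helper genes was 414 and 478 CPM in the same 2 libraries and 226 to 360 CPM in the other day 7 libraries, against 172 to 241 CPM in naive libraries. That sum followed Ccr4 with r = 0.88 (rho = 0.81, r = 0.80 without the 2 farthest libraries). Maf is among the 11 and was picked above for its likeness to Ccr4, so this r is partly built in. Over the mean of 3 genotypes, 6 of the 10 tested follicular genes were higher at day 7, beside 11.2% of all genes called either way. Those with the smallest p had log2 fold changes of 2.69 (Tox2), 1.81 (Cxcr5), 0.43 (Slamf6) and 3.34 (Il21). Th17 genes moved as well, with 8 of 11 tested genes higher and none lower, beside the same 11.2%. Their sum followed Ccr4 with r = 0.67, and Il21 is in both lists. In bulk RNA more cells of a type and more RNA per cell cannot be told apart, and the part of these cells in the Ccr4 value was not tested.

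**Figure D4:**
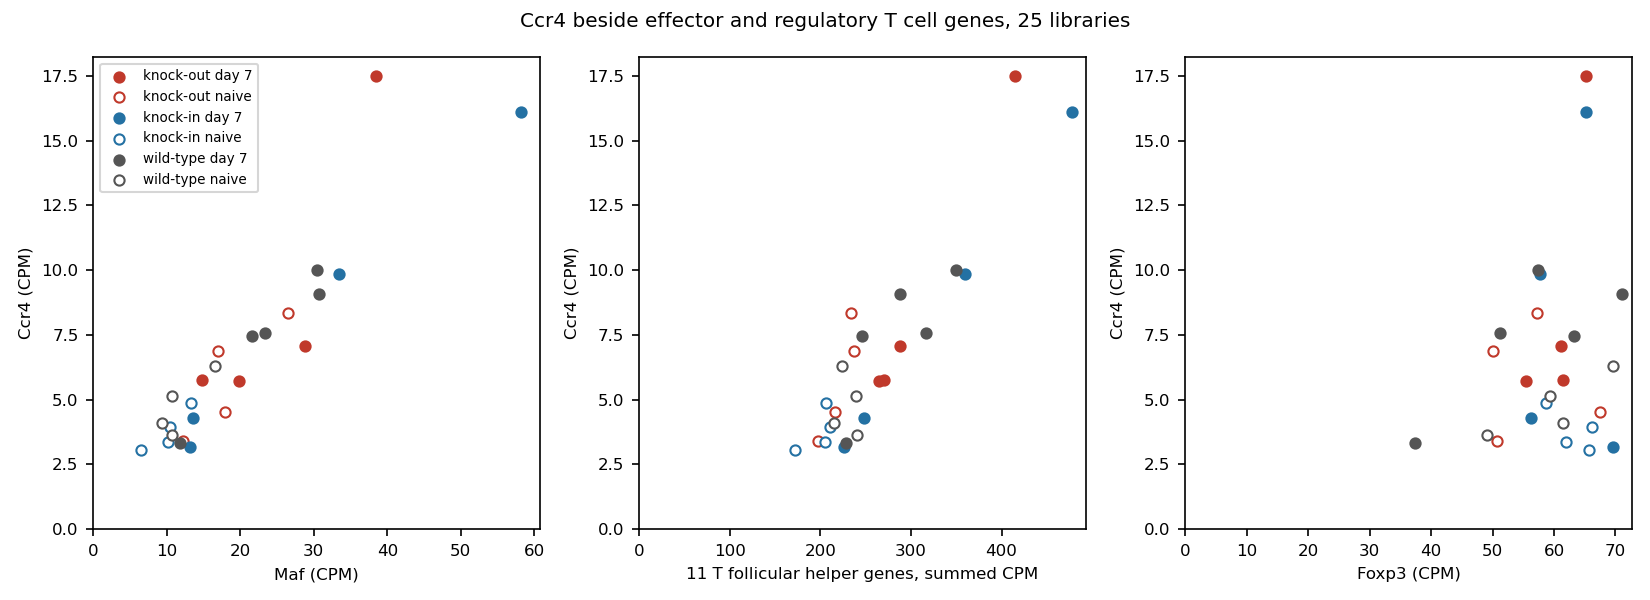
Ccr4 (CPM, vertical) against Maf (left), the summed CPM of 11 T follicular helper genes (middle) and Foxp3 (right), 1 point per library, with filled points for day 7 and open points for naive. Maf is among the 11 follicular helper genes. Ccr4 climbs with Maf and with the follicular helper sum, and the libraries at 17.5 and 16.1 CPM of Ccr4 have Foxp3 levels inside the range of the others, while their sums over 17 regulatory T cell genes, 652 and 599 CPM, are the highest of their groups.

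Regulatory T cells also carry CCR4, CCR8 and ST2, so their markers are given beside these genes. The summed level of 17 regulatory T cell genes was 467 to 652 CPM in knock-out day 7, 470 to 599 CPM in knock-in day 7 and 368 to 624 CPM in wild-type day 7 libraries, against 405 to 515 CPM in knock-out naive, 456 to 560 CPM in knock-in naive and 466.3 to 533 CPM in wild-type naive libraries. Of 16 tested at day 7 over the mean of 3 genotypes, Tigit (1.66) and Ctla4 (0.44) rose, Itgae changed by -0.48 and 13 did not pass. In that comparison 11.2% of all genes passed. The defining factor Foxp3 was detected in every library at 37.4 to 71.0 CPM. The libraries with the most Ccr4, knock-out day 7 replicate 2 and knock-in day 7 replicate 1, had the highest sum of their groups, 652 and 599 CPM. Il2ra was highest of the 25 libraries in the knock-out one (112 CPM), but in the knock-in one (86.6 CPM) it lay inside the range of its group. Ctla4 was highest of the 25 in the knock-in one (31.5 CPM). In the knock-out one (25.4 CPM) it was highest of its group but below wild-type day 7 replicate 3 (29.8 CPM). The sum followed Ccr4 with r = 0.69, Ccr8 with r = 0.24 and Il1rl1 with r = 0.29. The part of regulatory T cells in these receptor levels was not tested.

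Markers of cells outside the CD4 lineage that use Th2 genes were measured as well. Of 13 mast cell, basophil and eosinophil markers only Kit passed the filter, Fcer1a and Mcpt8 had no count in any library, and the summed level was 0.979 to 2.79 CPM in knock-out day 7, 0.770 to 5.99 CPM in knock-in day 7 and 1.72 to 7.21 CPM in wild-type day 7 libraries, against 1.84 to 3.83 CPM in knock-out naive, 0.607 to 5.34 CPM in knock-in naive and 0.471 to 2.99 CPM in wild-type naive libraries. Of the 12 markers of group 2 innate lymphoid cells, which include Il1rl1, 6 passed the filter. Id2 (0.54) and Rora (0.51) rose at day 7 over the mean of 3 genotypes, where 11.2% of all genes passed. The other tested markers of this list did not pass, and 4 of the 6 fold changes were above 0. Id2 and Rora are also expressed by CD4 T cells. The summed level of the 12 was 43.0 to 66.5 CPM in knock-out day 7, 32.5 to 51.7 CPM in knock-in day 7 and 43.1 to 57.3 CPM in wild-type day 7 libraries, against 29.8 to 42.2 CPM in knock-out naive, 33.4 to 36.5 CPM in knock-in naive and 36.1 to 39.6 CPM in wild-type naive libraries. The part of such cells in the Il1rl1 level was not tested.

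The other members had looser company. Gata3 was most like Smarcd1, a chromatin remodelling subunit (r = 0.79), Zyx (r = 0.75) and Rab4a (r = 0.75). Stat6 was most like Cln3 (r = 0.84), Rere (r = 0.82) and Ctdsp1 (r = 0.80). Among the genes most like Il4ra were Nat14 (r = 0.76) and Ears2 (r = 0.76). Ccr8 was most like Zfp658 (r = 0.71), Iigp1 (r = 0.71) and Tmtc2 (r = 0.70), and Il1rl1 most like Kcnq5 (r = 0.71), Cdc25b (r = 0.68) and Fuca1 (r = 0.67). Among the 15 pairs of members the highest r was 0.43 (Ccr4 with Il1rl1). The lowest were -0.53 (Il4ra with Ccr4) and -0.47 (Stat6 with Ccr8). As a set these genes thus did not rise and fall together across the 25 libraries.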

How the data were processed

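The authors deposited 1 table of unnormalized counts for 25 libraries, keyed by Ensembl gene and made from reads mapped to mm10, with DESeq2 named for analysis, per the submitters' processing notes. Not given in the sources used here: aligner, counting tool, strand setting and annotation. Reads in stretches that Gata3, Stat6 or Il4ra share with another gene therefore cannot be assigned with certainty. The overlapping genes of Gata3 had at most 291 counts, against 31805 for Gata3. Nab2 overlaps Stat6 by 40 bases and had 22781 counts, against 87621 for Stat6. Gm44876, which overlaps Il4ra by 1342 bases, is not in the count table. Per the labels' protocols, libraries were made from total RNA with a stranded kit for small inputs and sequenced in pairs. Symbols, positions and exon lengths came from GENCODE M21, promoters from RefSeq GRCm38.p6.

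Counts were filtered with filterByExpr (minimum count 10, minimum total 15), scaled by TMM and fitted with edgeR 4.0.16 (R 4.3.3) over 25 libraries, 1 mean per group, and tested by quasi-likelihood F tests, two-sided, with Benjamini-Hochberg adjustment over all 14703 genes at 0.05 in each of 12 comparisons. Fold changes are log2, and CPM is scaled by TMM. limma 3.58.1 (voom) and DESeq2 1.42.0 were alternatives. On simulated counts for day 7 against naive over the mean of 3 genotypes, 60% of 100 genes changed 1.5-fold, 77.6% of 49 changed 2-fold and 100% of 50 changed 4-fold were called, among 14440 genes. The changed genes were drawn at random from the tested genes, so these rates are not those of single members. Ccr4, Ccr8 and Il1rl1 had a biological coefficient of variation of 39.6% to 40.7%, against a common value of 21.0%.

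The members and gene lists were chosen with earlier results of these data known. All 8 members were named, and from each other list up to 4 called genes with the smallest p over the mean of 3 genotypes, or, if none was called, the highest by mean. For likeness, the 3 tested protein-coding genes with the highest Pearson r of log2 CPM (prior count 2) were named. Il5, Il9, Il31, Il3, Ccl1, Fcer1a, Mcpt8, Foxp3, Il2ra, Runx1, Ikzf1 and Cd4 were named after their values were seen. Of the genes these rules name, 2 are not reported here. No 2 libraries of a group agreed within sampling noise.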

Additional observations from a re-analysis of the deposited data

Results flagged for a closer look

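For each gene, the value of a library was picked out by its gap to the nearest value of its group. The gap had to take up more of the group's range than Dixon's 95% critical value allows. Chance alone picks out about 5% of sets, or 1 in 20, where a set is 1 gene in 1 group. There were 46 such sets with a range above 0, and 9 values were picked out. A set with counts in only 1 library is picked out whatever their number, so the 5% does not hold for such sets.

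Ccr4 in knock-out day 7 replicate 2 was 17.5 CPM, against 5.70 to 7.08 CPM in the other 3. Il4 was picked out in the same library at 0.471 CPM, or 5 counts, with none in the other 3. Gata3 in knock-in naive replicate 2 was 57.5 CPM, against 55.2 to 55.4 CPM in the others, a small gap in a tight group. Stat6 in knock-in day 7 replicate 2 was 197 CPM, against 152 to 157 CPM, and Il4ra in knock-in naive replicate 1 was 263 CPM, below 313 to 319 CPM in the others. The remaining 4 rest on few counts in groups otherwise at 0. Il13 was 0.118 CPM in knock-in day 7 replicate 3 (3 counts), 0.156 CPM in knock-in naive replicate 3 (7 counts) and 0.157 CPM in wild-type naive replicate 1 (1 count), and Il4 was 0.103 CPM in wild-type naive replicate 4 (1 count).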

How the results depend on the processing

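Of 41 fold changes of single Th2 genes, 5 changed their side of the threshold and 10 changed sign under at least 1 alternative. The percentage of all tested genes called depended on the tool, the filter and single libraries, and the cause was not tested. DESeq2 called 1.51% at day 7 in knock-out, 3.39% in knock-in and 3.39% in wild-type cells, 0.109%, 0.524% and 0.646% in knock-out against wild-type naive, at day 7 and over 2 stages, 0.034% in knock-in against wild-type naive and 0.0068% over 2 stages, and 0.0068% in each difference of day 7 changes. limma voom called 0.109%, 4.9% and 3.51% at day 7 in knock-out, knock-in and wild-type cells, 0.0136% in knock-out against wild-type at day 7, 0.0272% in knock-in against wild-type naive and 0.0136% in the knock-in difference. Without a filter it was 1.81%, 2.99% and 3% at day 7 in knock-out, knock-in and wild-type cells and 6.67% over 3 genotypes, 0.494%, 1.17% and 0.893% for knock-out naive, at day 7 and over 2 stages, 0.198%, 0.322% and 0.282% for knock-in, and 0.682% and 0.366% for the knock-out and knock-in differences. The stricter filter (5 CPM in 4 libraries) gave 0.752%, 3.31% and 3.4% at day 7 in knock-out, knock-in and wild-type cells, and 0.0396% and 0.317% for knock-out naive and over 2 stages. With library number as a covariate it was 0.0136% and 0.0952% for knock-out naive and over 2 stages and 0.0068% for knock-in naive, with a block of library numbers 0.0884% for knock-out at day 7 and 0% for knock-in naive, and with only the groups compared 0.246% for day 7 in knock-out, 0.00715% and 0.0976% for knock-out at day 7 and over 2 stages and 0.0824% for knock-in naive. Leaving out 1 library gave 0.193% to 0.616%, 0.716% to 2.52% and 0.95% to 3.19% at day 7 in knock-out, knock-in and wild-type cells, 0.0132% to 0.0198%, 0.0132% to 0.1% and 0.0727% to 0.271% for knock-out naive, at day 7 and over 2 stages, and 0% to 0.0334%, 0% to 0.0066% and 0% to 0.0137% for knock-in.

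Among the Th2 genes, voom called 1 at day 7 in wild-type cells (Stat6) and 0 over 3 genotypes, the fit without a filter 1 in knock-in cells (Ccr4, adjusted p = 0.000218), the block 0 over 3 genotypes, and leaving out 1 library 0 to 1. Gata3 in knock-out cells at day 7 was -0.075 with voom and -0.10 to 0.074 with 1 library left out. In wild-type cells it was -0.074 to 0.040, and Il4ra was -0.031 to 0.00033. Stat6 in knock-in cells at day 7 was 0.0058 under the stricter filter and -0.10 to 0.026 with 1 library left out. Against wild-type over 2 stages, knock-in values turned for Stat6 (0.0056 without a filter, -0.046 to 0.019 with 1 library left out), Gata3 (-0.029 with the block), Il4ra (-0.013 with the covariate, -0.020 with the block), and with 1 library left out for Il1rl1 (-0.14 to 0.31), Ccr4 (-0.36 to 0.054) and Ccr8 (-0.26 to 0.013). The 16 median levels under total-count or RLE scaling differed by at most 2.56%. No paired analysis was possible because the labels give no replicate number shared between groups. The block above joins consecutive library numbers, which the labels do not tie to a mouse, litter or day, and with it the Ccr4 change over 3 genotypes missed the threshold (adjusted p = 0.0717). Il4 and Il13 rest on few counts, and the wide intervals of the receptors stand beside their spread between libraries.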

Other observations

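Genes of the rival helper lineages were measured in the same libraries. Of 13 tested Th1 genes, none was higher and 2 were lower at day 7 over the mean of 3 genotypes. Nkg7, a cytotoxic granule gene, was among the lower (log2 fold change -1.68). Over all genes tested, 11.2% passed in that comparison. Among the 11 tested Th17 genes the largest calls by p were Il1r1, the interleukin-1 receptor (3.45), Il21 (3.34), Ccr6, a homing receptor (1.08), and Il22 (5.96). Il22 had no counts in 16 of 25 libraries, so its fitted value is no bound.

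Of 10 naive T cell genes, Klf2 (0.51) and Tcf7 (0.16) rose and Il7r (-0.17) and Foxp1 (-0.13) were lower. These calls and the next are at day 7 over the mean of 3 genotypes, where 11.2% of all genes passed. None of the 10 B cell, 5 tested myeloid or 7 tested NKT cell markers passed. Of 9 tested CD8 T and NK cell markers, Prf1 (0.39) rose, and Trdc (-0.71) and Klrd1 (-1.003) were lower at day 7.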
